A study of Rattus norvegicus with 6 samples.

Results

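Leukocytes leave the blood through venous endothelium in an ordered series of contacts. Selectins on the endothelium catch sugars on a passing leukocyte and let it roll, members of the immunoglobulin superfamily then bind activated integrins and hold it still, and junctional proteins line the path between endothelial cells. Venules and veins are the usual site of this traffic, and several of the molecules are induced by cytokines in inflamed vessels. The 9 genes described here cover these steps. Selp and Sele encode P-selectin and E-selectin, and Selplg encodes PSGL-1, the leukocyte ligand of P-selectin. Vcam1, Icam1, Icam2 and Madcam1 encode endothelial ligands of integrins, and Jam2 and F11r encode junctional adhesion molecules. They were taken by gene symbol from the 17833 genes of the deposited table, and all 9 were found.

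The genes were measured by bulk RNA-seq in pulmonary veins (PVs), 3 from rats with bilateral banding of these veins (BPVB) and 3 from rats given a sham operation, all of the SD strain and wild type. Surgery took place on postnatal day 1 and the PVs of the right upper lobe were taken on postnatal day 21. The sham rats had their veins exposed without constriction, so thoracotomy and anesthesia on ice are shared by both groups. Values are FPKM, fragments per kilobase of gene and scaled to the fragments of the library, and can be set side by side between genes. The fragments behind them were recovered from the steps of the FPKM, and the libraries held between 23439506 and 29725808 fragments, with the 3 BPVB libraries above the 3 sham libraries.

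Differences between the groups were tested with limma on log2(FPKM + 0.5) over the 15150 genes whose mean reached 0.1 FPKM, two-sided, and a gene was called at a Benjamini-Hochberg adjusted p under 0.05. All 9 genes entered the test. A total of 5 were higher in the BPVB group (Madcam1, Selp, Selplg, Vcam1 and Icam1), 2 were lower (Jam2 and Icam2), and Sele and F11r did not pass. Among all genes tested, 17.2% were called higher and 14.3% lower, 31.5% in either direction, so that calls are frequent in these veins. The median log2 fold change was 0.17 over the 9 genes and 0.02 over all genes tested. No overlap between the groups was seen in 8 of the 9 genes, 5 of them higher and 3 lower in the BPVB group. Over all genes tested, 45.6% had no overlap, 25.2% being higher and 20.5% lower. Whole-tissue RNA cannot tell apart fewer cells of a type and less RNA per cell.

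**Figure D1:**
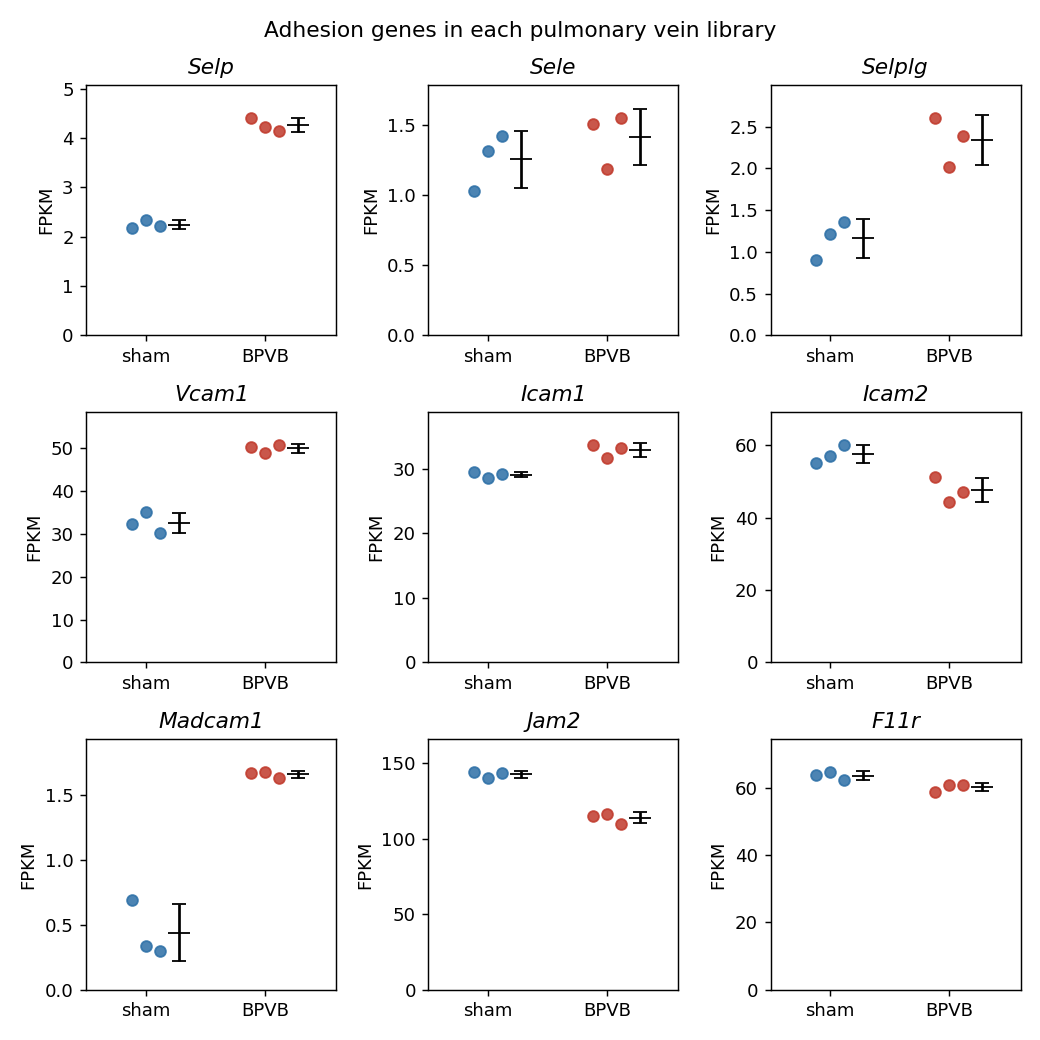
FPKM of each of the 9 adhesion genes in the 3 sham (blue) and 3 BPVB (red) libraries, 1 point per rat, with the mean and SD of the group beside the points and each vertical axis starting at 0. The groups lie apart for every gene but Sele, and the BPVB values of Jam2, Icam2 and F11r lie below those of the sham group.

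The order of the levels differed between the groups. In the sham group Jam2 was highest at 143 FPKM, followed by F11r (63.6), Icam2 (57.4), Vcam1 (32.6) and Icam1 (29.1). The selectins and their ligand were far lower, with 2.25 FPKM for Selp, 1.25 for Sele and 1.16 for Selplg, and Madcam1 was lowest at 0.44. Only Sele and Selplg overlapped among neighbours in this order. In the BPVB group Jam2 (114) and F11r (60.1) still led, while Vcam1 (49.99) stood level with Icam2 (47.6), its values lying within the range of those of Icam2. Selplg (2.34) stood above Sele (1.41) there without overlap, and Madcam1 (1.66) also stood above Sele.

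P-selectin is stored in the Weibel-Palade bodies of endothelial cells and in platelet granules and reaches the cell surface within minutes of stimulation. Selp (NCBI Gene 25651) stood at 4.42, 4.23 and 4.14 FPKM in BPVB PVs, against 2.17, 2.34 and 2.23 in sham PVs. Every BPVB value was well above every sham value, and the spread within a group was small beside the gap. The BPVB mean was 4.26 ± 0.14 (SD, n = 3) and 1.90 times the sham mean of 2.25 ± 0.088 (SD, n = 3). On log2(FPKM + 0.5), which understates the change of low genes, the log2 fold change was 0.79 (standard error 0.093, limma adjusted p = 2.4e-04). Between 171 and 408 fragments per library lay behind these values.

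E-selectin is made by endothelium after stimulation by cytokines and is hardly present on resting vessels. Sele (NCBI Gene 25544) stood at 1.505, 1.18 and 1.55 FPKM in BPVB PVs, against 1.02, 1.31 and 1.42 in sham PVs. The groups overlapped, since BPVB replicate 2 lay below sham replicates 2 and 3. The log2 fold change of 0.13 (standard error 0.14) had a limma adjusted p of 0.54, and its 95% confidence interval ran from -0.20 to 0.45. A rise of the size seen for Selp lies outside that interval. Within libraries, the ratio of Selp to Sele averaged 3.06 ± 0.47 with banding and 1.82 ± 0.27 after sham surgery (SD, n = 3 each), a ratio chosen after the values were seen.

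PSGL-1 sits on leukocytes and is bound by P-selectin. Selplg (NCBI Gene 363930) stood at 2.61, 2.02 and 2.39 FPKM in BPVB PVs, against 0.908, 1.21 and 1.36 in sham PVs. All BPVB values exceeded all sham values, although each group spread more than for Selp. The mean ratio was 2.02, and the log2 fold change was 0.78 (standard error 0.15, limma adjusted p = 0.0036). Markers of leukocytes moved in the same direction. Of 9 pan-leukocyte markers, 6 were higher and 0 lower in the BPVB group, with a median log2 fold change of 0.85. Their summed level was 139 to 152 FPKM in BPVB PVs, against 113 to 119 in sham PVs. A large part of that sum was Arhgdib, which did not pass the test and averaged 68.9 FPKM with banding and 70.7 after sham surgery. Set against the mean of these markers within each library, Selplg differed by 0.13 on the log2 scale and the groups overlapped (exact permutation test, two-sided, p = 0.7, where 3 libraries against 3 allow no p under 0.1).

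Vcam1 encodes VCAM-1, the ligand of the integrin formed by the products of Itga4 and Itgb1 on monocytes and lymphocytes. Vcam1 (NCBI Gene 25361) stood at 50.3, 48.8 and 50.8 FPKM in BPVB PVs, against 32.3, 35.1 and 30.3 in sham PVs. The groups lay far apart compared with their spread. The BPVB mean was 49.99 ± 1.0 (SD, n = 3) and the sham mean 32.6 ± 2.4 (SD, n = 3), a ratio of 1.54, and the log2 fold change was 0.61 (standard error 0.054, limma adjusted p = 4.7e-05). Vcam1 rested on 2170 to 4540 fragments per library. It can also be made by smooth muscle cells and fibroblasts, so the value need not be that of endothelium alone.

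Icam1 encodes ICAM-1, which binds the leukocyte integrins that share the chain made by Itgb2. Icam1 (NCBI Gene 25464) stood at 33.7, 31.6 and 33.2 FPKM in BPVB PVs, against 29.5, 28.6 and 29.1 in sham PVs. The groups did not overlap, but the gap was narrow, and the mean ratio was 1.13. Its log2 fold change was 0.17 (standard error 0.043, limma adjusted p = 0.014), and its 95% confidence interval, 0.08 to 0.27, lay below that of Vcam1, 0.49 to 0.74. Within libraries, the ratio of Vcam1 to Icam1 was 1.49, 1.54 and 1.53 with banding, against 1.10, 1.22 and 1.04 in sham PVs.

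Icam2 encodes ICAM-2, a constitutive ligand of the same integrins on resting endothelium and platelets. Icam2 (NCBI Gene 360647) stood at 51.1, 44.4 and 47.1 FPKM in BPVB PVs, against 55.2, 57.0 and 60.1 in sham PVs. It moved opposite to Icam1 and Vcam1, with every BPVB value below every sham value. The sham mean was 1.21 times the BPVB mean, and the log2 fold change was -0.27 (standard error 0.056, limma adjusted p = 0.0061). The ratio of Vcam1 to Icam2 within libraries was 0.985, 1.10 and 1.08 with banding, against 0.585, 0.615 and 0.504 in sham PVs. These ratios do not depend on the scaling between libraries, and they were chosen after the values were seen.

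MAdCAM-1, the product of Madcam1, is the addressin of gut venules and binds the integrin made by Itga4 and Itgb7. Madcam1 (NCBI Gene 54266) stood at 1.67, 1.68 and 1.63 FPKM in BPVB PVs, against 0.691, 0.334 and 0.295 in sham PVs. The BPVB libraries were close to each other, whereas sham replicate 1 stood above the other sham libraries, and all sham values were below all BPVB values. The mean ratio was 3.77, the log2 fold change was 1.22 (standard error 0.17, limma adjusted p = 6.8e-04), the largest of the 9 genes on this scale. A call with a log2 fold change above 1 was reached upwards by 2.24% of all genes tested. Madcam1 rested on few fragments, 57, 56 and 62 with banding, against 21, 10 and 9 in sham PVs. Its log2 fold change depended on the scale, at 0.90 with a pseudocount of 1, 1.78 with a pseudocount of 0.1 and 1.97 with limma-voom on the recovered fragments.

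Because these integrin ligands are classical targets of the transcription factor NF-kB in endothelium, the promoters of the 3 that rose are shown, each as the 250 bases before the start of the gene in RefSeq, read 5′ to 3′ on the strand of the gene. RefSeq sequences on the GRCr8 build were matched by NCBI Gene number for 6 of the 9 genes, Sele, Vcam1, Icam1, Madcam1, Jam2 and F11r. The build used for the deposited values is not given in the sources used here. Capitals mark matches on either strand to GGGNNNNNCC, a loose form of the NF-kB site in which N is any base, to GGAAATTCC, a further form of that site, and to TTCNNNGAA, the core of a STAT site. The Vcam1 promoter lies at chr2:206742784-206743033 on the minus strand, that of Icam1 at chr8:27829595-27829844 on the plus strand and that of Madcam1 at chr7:10690323-10690572 on the minus strand.
Vcam1: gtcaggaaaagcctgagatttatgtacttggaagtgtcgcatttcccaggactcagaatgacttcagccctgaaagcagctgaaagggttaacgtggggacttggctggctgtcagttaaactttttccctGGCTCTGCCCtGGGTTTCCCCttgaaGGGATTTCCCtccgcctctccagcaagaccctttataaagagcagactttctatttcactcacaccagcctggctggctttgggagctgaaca
Icam1: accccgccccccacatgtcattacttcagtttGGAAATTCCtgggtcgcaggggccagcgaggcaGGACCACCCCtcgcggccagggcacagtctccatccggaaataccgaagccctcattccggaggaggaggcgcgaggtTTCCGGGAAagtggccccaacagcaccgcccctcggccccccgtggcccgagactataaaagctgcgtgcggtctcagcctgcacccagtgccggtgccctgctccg
Madcam1: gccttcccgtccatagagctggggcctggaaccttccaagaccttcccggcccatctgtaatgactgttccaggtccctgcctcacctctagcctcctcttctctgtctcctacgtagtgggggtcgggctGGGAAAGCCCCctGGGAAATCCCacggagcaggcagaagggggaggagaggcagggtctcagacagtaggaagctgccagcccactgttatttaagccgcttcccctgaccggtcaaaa

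In Vcam1, the matches GGGTTTCCCC and GGGATTTCCC began 108 and 93 bases before the start of the gene. In Madcam1, GGGAAAGCCC and GGGAAATCCC began 119 and 106 bases before it. Icam1 had GGAAATTCC 218 bases and TTCCGGGAA 107 bases before its start. The loose motif is common: 43.5% of 27457 RefSeq promoters of this length held it, as did 5 of the 6 matched adhesion genes, among them Jam2, which fell, and F11r. GGAAATTCC was held by 0.288% of the promoters and TTCNNNGAA by 7.52%. Neither these motifs nor the loose one were found in these 250 bases of Sele. The matches are descriptions of sequence and were not measured as binding.

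Junctional adhesion molecules seal the contacts between endothelial cells and also serve as ligands for leukocyte integrins. JAM-B, the product of Jam2, is concentrated in the endothelium of veins and lymphatics. Jam2 (NCBI Gene 619374) stood at 115, 117 and 110 FPKM in BPVB PVs, against 144, 140 and 143 in sham PVs. All BPVB values were below all sham values, and the sham mean of 143 ± 2.1 (SD, n = 3) was 1.25 times the BPVB mean of 114 ± 3.5 (SD, n = 3). With at least 13650 fragments per library it was the most deeply measured of the 9 genes, and its log2 fold change was -0.32 (standard error 0.032, limma adjusted p = 9.3e-05).

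JAM-A, the product of F11r, is found at the junctions of both endothelium and epithelium and on platelets and leukocytes. F11r (NCBI Gene 116479) stood at 58.7, 60.7 and 60.8 FPKM in BPVB PVs, against 63.8, 64.6 and 62.2 in sham PVs. The groups did not overlap, but the difference was small, and the log2 fold change of -0.08 (standard error 0.034, 95% confidence interval -0.16 to -0.0034) had a limma adjusted p of 0.11. Epithelial markers moved the other way: of 6 tested markers of simple epithelium 4 were higher and 0 lower, with a summed level of 14.7 to 17.2 FPKM in BPVB PVs, against 4.39 to 5.51 in sham PVs. The share of F11r that comes from epithelium was not tested.

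**Figure D2:**
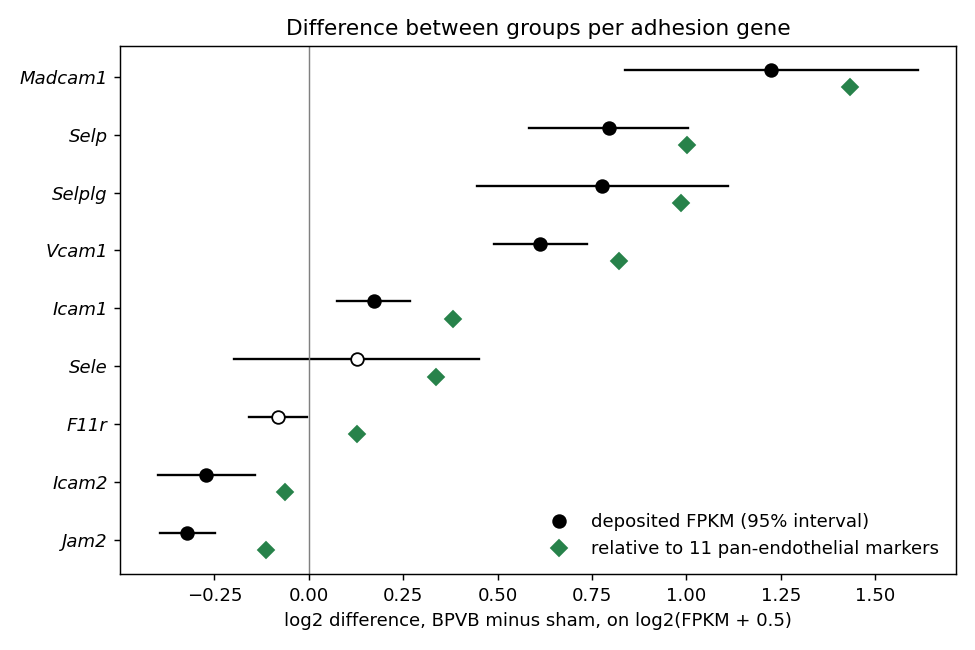
Difference between the BPVB and sham groups on log2(FPKM + 0.5) for each adhesion gene. Circles with 95% confidence intervals give the limma log2 fold change (filled where the adjusted p was under 0.05) and green diamonds give the difference relative to the mean of 11 pan-endothelial markers, which places Madcam1, Selp, Selplg and Vcam1 further to the right and Jam2 and Icam2 closer to 0.

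As endothelium carries most of these genes, their differences were set beside those of endothelial markers. Of 11 pan-endothelial markers, 7 were lower and 0 higher in the BPVB group, with a summed level of 938 to 961 FPKM in BPVB PVs, against 1101 to 1116 in sham PVs. The mean of log2(FPKM + 0.5) over the 11 markers fell by 0.21, where Cdh5, which encodes the cadherin of endothelial junctions, fell from 185 ± 3.1 to 146 ± 3.1 FPKM (SD, n = 3 each). Relative to this mean within each library, Selp differed by 1.00, Vcam1 by 0.82, Madcam1 by 1.43 and Icam1 by 0.38 on the log2 scale. All 4 genes kept the groups apart (two-sided exact permutation test, p = 0.1 each, the smallest that 3 against 3 allow).

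For Icam2 the relative difference was -0.06 and the groups overlapped, and for Jam2 it was -0.11 without overlap. Thus the relative differences of the falling genes were smaller than their FPKM differences of -0.27 and -0.32. F11r turned from lower to higher, with a relative difference of 0.13, and Sele differed by 0.34 with overlap. The choice of markers mattered. With 6 venous endothelial markers as the reference, whose mean was higher by 0.24 in the BPVB group, the differences were 0.56 for Selp, 0.37 for Vcam1, 0.99 for Madcam1, -0.07 for Icam1, -0.51 for Icam2 and -0.56 for Jam2. Among the venous markers Slc6a2 had a log2 fold change of 1.52, and without it the values were 0.81, 0.63, 1.24, 0.19, -0.25 and -0.31 in the same order.

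The leukocyte side of the same contacts was described through 10 counter-receptor genes, a list that was written, like the others here, with earlier results of these data known. Of the 10 genes, 7 were higher and 0 were lower in the BPVB group, with a median log2 fold change of 0.66. Itgb2, the shared chain of the integrins that bind ICAM-1 and ICAM-2, rose from 3.36 ± 0.088 to 8.22 ± 1.1 FPKM (SD, n = 3 each; log2 fold change 1.17, limma adjusted p = 3.9e-05). Itgal and Itgam, its partners in LFA-1 and Mac-1, had log2 fold changes of 0.85 and 0.79. Itga4, whose product pairs with that of Itgb1 to bind VCAM-1, rose from 1.301 ± 0.31 to 2.53 ± 0.24 FPKM (SD, n = 3 each). Its other partner, Itgb7, had a log2 fold change of 0.56 that did not pass the test (limma adjusted p = 0.083). Cd44, which encodes a receptor for hyaluronan, did not differ detectably (0.04, limma adjusted p = 0.63).

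Set beside the pan-leukocyte markers, the counter-receptors differed among themselves. Relative to the mean of the 9 markers within each library, Itgal, Itgam, Itga4 and Spn differed by 0.11 to 0.20 on the log2 scale with overlap between the groups, and Itgb2 by 0.52 without overlap. Itgb7, itself low, differed by -0.09 with overlap. The well-measured Itgb1 (-0.47) and Cd44 (-0.61), which many other cells also make, were below the markers without overlap. Itgax and Itgad lay so low, with sham means of 0.253 and 0.0574 FPKM, that the pseudocount sets their place beside the markers, and their BPVB means were 2.05 and 3.88 times these. Itgad did not pass the test and rested on 3 to 33 fragments per library. The leukocyte markers did not move as one. Of 11 macrophage markers, 10 were higher and 0 lower. Their summed level was 733 to 754 FPKM in BPVB PVs, against 266 to 274 in sham PVs. Most of it came from Lyz2, at 592 FPKM on average with banding and 163 after sham surgery. The sum therefore describes mainly Lyz2, whose log2 fold change was 1.85, while the median over the 11 markers was 0.62. The share of Lyz2 that comes from alveolar epithelium was not tested. Of 7 tested neutrophil markers, 0 were higher and 4 lower (Ngp, S100a8, Camp and S100a9), and their summed level was 6.83 to 10.4 FPKM in BPVB PVs, against 21.8 to 24.6 in sham PVs. Of 7 T cell markers, Cd4, which rat macrophages also express, was higher, and of 5 B cell markers 0 passed limma with adjustment and 0 had an unadjusted p under 0.05. The part of these cells in the rise of Selplg and the counter-receptors was not tested.

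**Figure D3:**
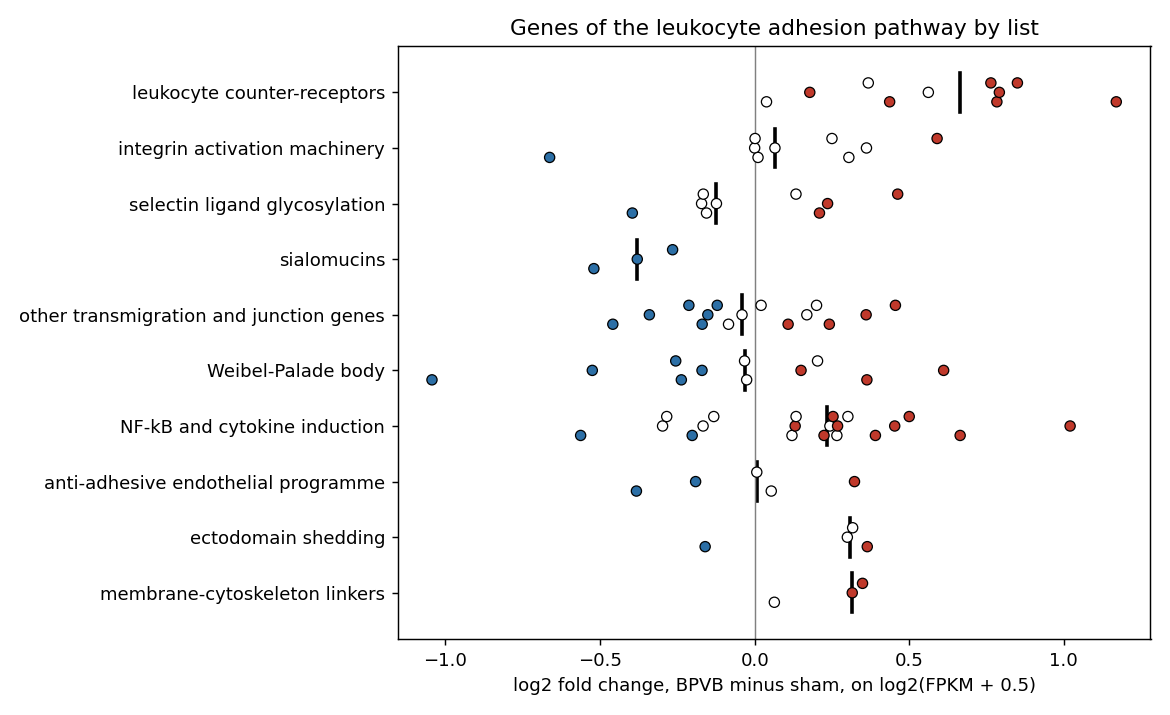
Log2 fold changes between the BPVB and sham groups for the tested genes of 10 lists around leukocyte adhesion, 1 point per gene, red where higher and blue where lower with a limma adjusted p under 0.05, white otherwise, and a black bar at the median of the list. The counter-receptors lie to the right of 0, the sialomucins to the left, and the Weibel-Palade body and junction genes on both sides.

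Selectins bind only sugars that a set of transferases builds on proteins such as PSGL-1. Of 9 tested genes of this set, 3 were higher and 1 lower in the BPVB group, where median-of-ratios scaling and limma-voom called 2 lower. The higher count was 2 with the replicate number as a block, with median-of-ratios scaling, with no filter on low values and without any BPVB replicate or sham replicate 2, and it was 4 on the TPM scale and with limma-voom. Chst2, a sulfotransferase for selectin ligands, rose by 0.46, Tpst1, which sulfates tyrosines as found in PSGL-1, by 0.24 and B4galt1 by 0.21 (limma adjusted p = 0.042, the nearest of them to the threshold), while the sialyltransferase gene St3gal6 was lower (-0.40). Fut7, the leukocyte fucosyltransferase of selectin ligands, had mean levels of 0.030 and 0.051 FPKM in the BPVB and sham groups and was not tested. In the list of sialomucins that can present sugars to selectins, all 3 genes analysed were lower, Emcn by -0.52, Cd34 by -0.38 and Podxl by -0.27, and these are also markers of endothelium.

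The other genes of the storage body of P-selectin varied. Vwf, which encodes von Willebrand factor and is the main cargo of Weibel-Palade bodies, averaged 379 ± 3.5 FPKM in BPVB PVs and 387 ± 1.9 in sham PVs (SD, n = 3 each; log2 fold change -0.03, limma adjusted p = 0.29). Of 11 genes of these bodies, 3 were higher and 5 lower, the latter count being 3 without BPVB replicate 2 or 3 or sham replicate 1 or 2 and on the TPM scale. Angpt2, a cargo that destabilises vessels, rose from 24.1 ± 0.71 to 37.0 ± 2.0 FPKM (SD, n = 3 each), a log2 fold change of 0.61, whereas Rab3b, a small GTPase of secretory vesicles, fell from 21.1 ± 0.24 to 9.99 ± 0.78 (-1.04). Platelets also carry P-selectin. Of 7 platelet markers 0 were higher and 1, Itga2b, was lower (-0.55). Their summed level was 220 to 235 FPKM in BPVB PVs, against 220 to 239 in sham PVs. Nearly all of it came from Pf4, at 210 and 209 FPKM on average, so the sum describes Pf4 and not the list. Ppbp, Gp1ba and Gp6 were low, at 0.232, 0.421 and 0.716 FPKM in BPVB PVs. Their sham means were 0.280, 0.725 and 0.799 FPKM, and the amount of platelets was not tested.

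Cytokines induce Sele, Vcam1 and Icam1 through NF-kB. Of 20 tested genes of cytokine induction, 9 were higher and 2 lower in the BPVB group, with a median log2 fold change of 0.23. The chemokine gene Ccl2, which attracts monocytes, rose from 9.48 ± 2.0 to 19.5 ± 0.96 FPKM (SD, n = 3 each; log2 fold change 1.02, limma adjusted p = 4.5e-04). Relb rose by 0.66, Birc3 by 0.50 and Nfkbia, the inhibitor that NF-kB itself induces, by 0.45. Tnf and Il1b, which encode inducing cytokines, had log2 fold changes of -0.17 (limma adjusted p = 0.39) and -0.28 (0.12). Il1a was too low to be tested, at 0.111 FPKM on average in BPVB PVs and 0.060 in sham PVs with overlap, and Nfkbiz (-0.56) and Irf1 (-0.20) were lower. The count of genes called higher was 5 without BPVB replicate 1, and that of genes called lower was 1 without BPVB replicate 1, sham replicate 1 or sham replicate 3.

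Among 15 genes of junctions and transmigration, 4 were higher and 6 lower, and 2 were higher after leaving out any BPVB replicate or sham replicate 2, or with median-of-ratios scaling. Jam3, the partner of Jam2 in endothelial contacts, fell in the same direction (-0.46), as did Cdh5 (-0.34) and Bcam (-0.21), and Pecam1, which guides leukocytes through the junction, was lower by a smaller amount (-0.17, limma adjusted p = 0.0012). Alcam (0.46), Pvr (0.36), Nectin2 (0.24) and Cd99 (0.11) were higher. Of 9 genes that switch on leukocyte integrins, Rassf5 was higher (0.59) and Rasgrp2 lower (-0.66), and the other 7 did not pass the test in the reported fit, among them Fermt3 (0.25, limma adjusted p = 0.25) and Tln1 (0.01). The count of integrin activation genes called higher was 3 on the TPM scale and 2 with limma-voom, with the replicate number as a block, with a mean FPKM of at least 1 or without sham replicate 3.

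Flow-responsive and protease genes also set how much adhesion protein is displayed. Klf2, a flow-induced factor that restrains adhesion molecules, had a log2 fold change of 0.01 (limma adjusted p = 0.91). Of 5 genes of this anti-adhesive list, Nos3 (-0.38) and Klf4 (-0.19) were lower and Thbd (0.32) was higher. Adam17, a protease that sheds VCAM-1 from the cell surface, rose from 22.8 ± 0.20 to 29.5 ± 1.0 FPKM (SD, n = 3 each; log2 fold change 0.36), and Adam10 was lower (-0.16). The linkers Ezr (0.35) and Rdx (0.32), which tie adhesion molecules to the cytoskeleton, were higher, and Msn was at 0.06 (limma adjusted p = 0.19).

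**Figure D4:**
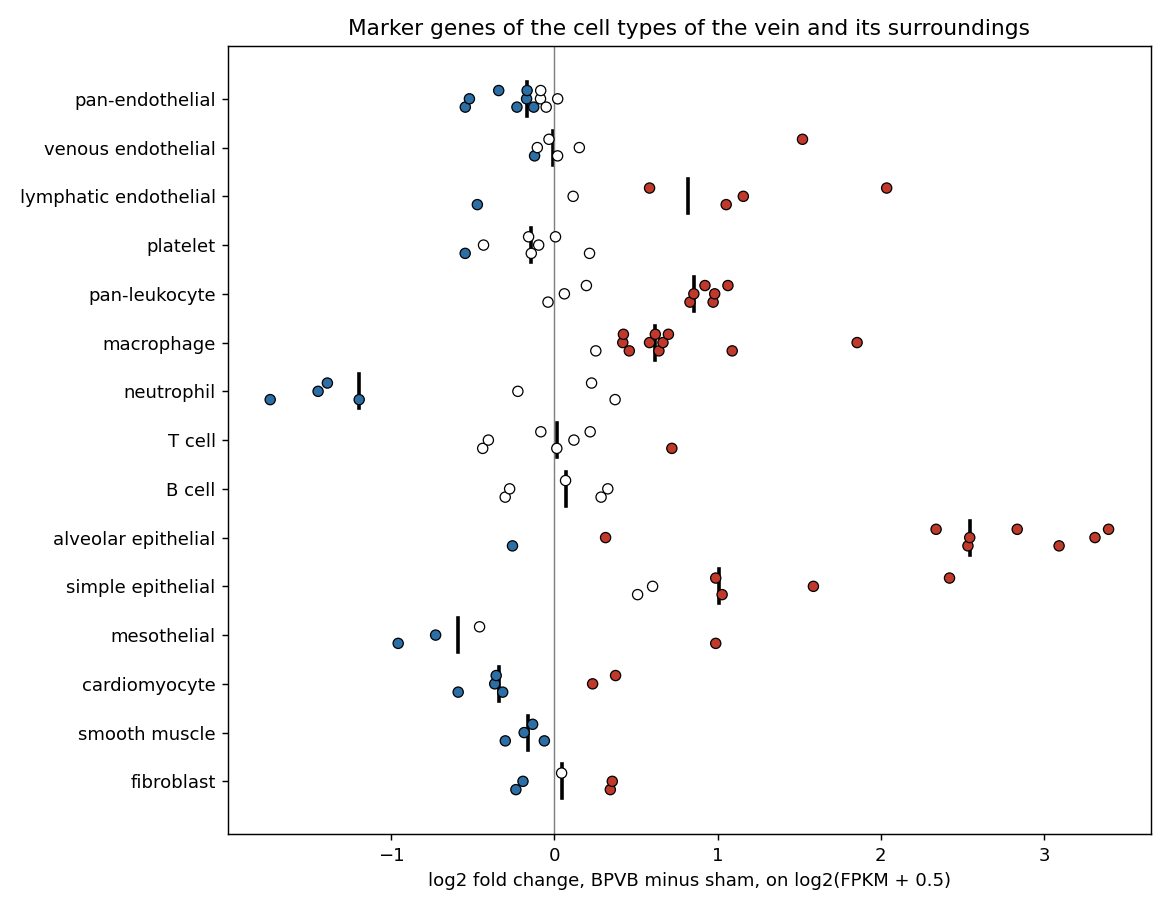
Log2 fold changes between the BPVB and sham groups for marker genes of 15 cell types, 1 point per tested gene, coloured as in the plot of the pathway lists, with a black bar at the median. Most macrophage and alveolar epithelial markers lie to the right of 0, the called neutrophil and pan-endothelial markers to the left, and platelet, T cell and B cell markers spread around 0.

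Other cells of the samples moved with the groups as well. Alveolar epithelial markers were higher in 8 of 9 cases and lower in 1, with a summed level of 647 to 700 FPKM in BPVB PVs, against 140 to 144 in sham PVs. Of 6 lymphatic endothelial markers, 4 were higher (Pdpn, Mmrn1, Prox1 and Reln) and Lyve1 was lower. Their summed level was 55.8 to 62.6 FPKM in BPVB PVs, against 48.8 to 51.6 in sham PVs. This sum joins opposite changes, since Pdpn averaged 15.1 FPKM against 3.30 and Lyve1 27.1 against 37.7. It is therefore no measure of the amount of lymphatic endothelium. All 4 smooth muscle markers were lower. Of 6 cardiomyocyte markers 4 were lower and 2 higher (Ryr2, 0.38, and Nppa, 0.23). Of 4 tested mesothelial markers 2 were lower (Upk3b and Msln), and Lrrn4 did not pass the test (-0.46, limma adjusted p = 0.061). The 1 that was higher, Krt19, is also in the list of simple epithelium. Of 5 fibroblast markers 2 were higher and 2 lower. The part of these cells in the values of Madcam1, Vcam1 and the other adhesion genes was not tested.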

How the data were processed

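Bulk RNA-seq of 3 BPVB and 3 sham PVs was analysed, 1 library per rat, grouped by the sample titles. The paper's methods name fastp, HISAT and HTSeq-count for the reads, whereas the submitters' processing notes name HISAT2 2.0.5, StringTie 1.3.3b, featureCounts 1.5.0-p3 and DESeq2 1.20.0. The paper and the labels also name different library kits. The genome build, the annotation and the strand setting are not given in the sources used here. The authors deposited 1 FPKM value per gene and rat, and every such column was used (0 left out).

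Ratios between libraries gave whole fragments for 100.0% of the 17833 genes within a relative error of 1e-10, and with the library totals a whole gene length, within 0.0001 bases, for all 13486 genes with at least 50 fragments in a library. A factor shared by all fragments of a gene and its length cannot be seen, so fragments of low genes can be too few. The fragments may not be independent molecules. The comparison used limma 3.58.1 in R 4.3.3 (lmFit, eBayes with trend) on log2(FPKM + 0.5) over 15150 genes whose mean reached 0.1 FPKM, with Benjamini-Hochberg adjustment. The paper's DESeq2 was not used: the deposited unit is FPKM, so that log values were the main scale and the recovered fragments served an alternative. The fit and the recovery were tested on simulated data. Single ratios were compared by exact permutation tests. The members and the gene lists were chosen with earlier results of these data known, and the counter-receptor list was analysed without 1 gene of its plan, which is not reported here. All 9 members are named, and of each list up to 4 called genes with the largest change, called genes of lists of up to 5, and genes tied to a member by role. Genes named beyond that, such as Slc6a2 and Cd44, were chosen after their values were seen. Alternatives were other pseudocounts, filters and scalings, robust eBayes, the replicate number as a block, limma-voom on fragments and each library left out. Python 3.11.15, pandas 2.3.3 and matplotlib 3.10.9 were used for the rest.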

Additional observations from a re-analysis of the deposited data

How the results depend on the processing

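The fold changes of the 9 genes kept their direction in all 16 alternatives, and the calls were kept except that F11r passed after median-of-ratios scaling (log2 fold change -0.11, limma adjusted p = 0.047). Leaving out single libraries kept every call, with that of Icam1 nearest to the threshold (adjusted p from 0.015 to 0.048). Over the settings that kept all libraries, 5 of the genes were higher, 2 to 3 lower, and 2355 to 3027 genes were called higher and 1880 to 2559 lower in all. Relative to the endothelial markers, the pseudocount of 0.1 gave 1.10 for Selp and 1.99 for Madcam1. With the venous markers as reference the differences were 0.56 for Selp, 0.54 for Selplg, 0.37 for Vcam1, 0.99 for Madcam1, -0.51 for Icam2 and -0.56 for Jam2, and the sign turned for Sele (-0.11), Icam1 (-0.067) and F11r (-0.32). With these markers but Slc6a2, an alternative chosen after seeing the data, they were 0.81 for Selp, 0.14 for Sele, 0.63 for Vcam1, 0.19 for Icam1, -0.25 for Icam2 and -0.31 for Jam2, and the sign turned for F11r (-0.064). Of the pathway list counts, 21 of 320 moved by more than 1.5 times, all of them counts of 9 or fewer. Over all alternatives the log2 fold change of Selplg ranged from 0.63 to 1.02 and that of Madcam1 from 0.90 to 1.97.

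Whether the numbers of the rats pair the libraries was not settled, and any such pairing was weak. The correlations of deviations from the group means were 0.025, 0.014 and 0.015 for libraries with the same number and -0.022 to 0.006 for the others. Each BPVB library thus correlated best with its own number, though all values were small. With the replicate number as a block, Selp had a log2 fold change of 0.79, Vcam1 of 0.61 and Icam1 of 0.17, and no call among the 9 genes changed. Depth limits Madcam1 most, with 9 to 62 fragments per library.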
